A study of Mus musculus with 12 samples.

Results

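Dmp1, Ebf2, Dpt, Zfpm2, Glrp1 and Ppp1r26 were 6 of 11716 tested genes, taken because the effect of losing Notch3 differed between cerebellar and cerebral vessels with p-values among the smallest of this series. They were found by gene symbol, with every probe set annotated to 1 of them alone, which gave 11 of 34945 probe sets that name a single gene. Small vessel fragments had been prepared from cerebellum and cerebrum of C57BL/6 mice aged 2 months, 3 with a Notch3 knockout (KO) and 3 wildtype littermates, called controls here. Each of the 12 Affymetrix Mouse Genome 430 2.0 arrays measured 1 region of 1 mouse, so that KO cerebellar, control cerebellar, KO cerebral and control cerebral vessels had 3 arrays each. The place of the deletion in the gene, the making of the line and the isolation of the vessels are not described in the labels used here. The RNA of all 4 groups came from whole fragments, so fewer cells of a type and less RNA per cell cannot be told apart.

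Notch3 is a cell-surface receptor of mural cells, which are the smooth muscle cells and pericytes of vessels. When a ligand on a neighbouring cell engages it, its intracellular part is cut free, enters the nucleus and, with the DNA-binding protein RBPJ, switches on genes such as Hey2, Heyl and Nrarp. The 6 genes are not among its textbook targets and do not form a pathway. Dpt encodes dermatopontin, a secreted matrix protein that binds decorin. Ebf2 encodes a transcription factor of the early B-cell factor family, known from brown fat and neural development, and Zfpm2 encodes FOG2, a partner of GATA factors needed for heart and coronary vessel development. Ppp1r26 encodes a regulatory subunit of protein phosphatase 1. Dmp1 encodes dentin matrix protein 1, an acidic matrix protein of bone and dentin made by osteocytes. Glrp1 encodes a glutamine repeat protein of little known function.

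Expression is given on the log2 scale for each probe set, and a level in one gene cannot be set against a level in another. Median values lay between 3.24 and 3.30 on the 12 arrays, and the median of all values was 3.27. Distance from background was read against that median and against 83 probe sets of chemosensory receptors (olfactory, vomeronasal and taste), whose values had a median of 2.20 and a 95th percentile of 3.90. The receptors were taken by symbol, so they include Olfr558, which is also on the smooth muscle list used below. Olfr558 averaged 2.97 in KO and 4.23 in control cerebellar vessels, and 2.44 in KO and 3.27 in control cerebral vessels. Its part in the 95th percentile was not tested. Transcripts that should be missing read in the same range. Notch3 was between 2.21 and 3.76 on the 6 KO arrays over its 2 probe sets, against 6.74 to 8.21 and 10.8 to 12.02 on the control arrays. Likewise, 9 probe sets of Y-linked genes read 1.81 to 3.71 on the 8 arrays with Xist. The mean level of 14 endothelial markers was 13.4 to 13.6 on every array.

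The 6 genes fell into 3 patterns. In Dpt, Ebf2, Zfpm2 and Ppp1r26 the control cerebellar arrays were high and the other 9 were low. Dmp1 was low on the KO cerebral arrays alone, and Glrp1 was highest on those same arrays. RefSeq promoter windows (GRCm38.p6, 250 bases before to 50 after a transcript's start) were held for 4 of the 6 genes, and 1 window of each is shown so that genes of like and of opposite pattern can be read side by side. They lie at chr1:164796413-164796712 on the plus strand (Dpt), chr2:28446820-28447119 on the plus strand (Ppp1r26), chr5:104197325-104197624 on the plus strand (Dmp1) and chr1:88510017-88510316 on the minus strand (Glrp1). Capitals mark the letters TATAAA in the Dpt window and TGACTCA in the Glrp1 window.
Dpt: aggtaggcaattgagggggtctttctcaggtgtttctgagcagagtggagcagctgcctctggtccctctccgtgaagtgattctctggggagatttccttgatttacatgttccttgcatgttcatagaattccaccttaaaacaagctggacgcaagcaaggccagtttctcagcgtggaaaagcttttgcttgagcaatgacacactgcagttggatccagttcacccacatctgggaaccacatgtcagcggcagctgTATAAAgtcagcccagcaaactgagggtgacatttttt
Ppp1r26: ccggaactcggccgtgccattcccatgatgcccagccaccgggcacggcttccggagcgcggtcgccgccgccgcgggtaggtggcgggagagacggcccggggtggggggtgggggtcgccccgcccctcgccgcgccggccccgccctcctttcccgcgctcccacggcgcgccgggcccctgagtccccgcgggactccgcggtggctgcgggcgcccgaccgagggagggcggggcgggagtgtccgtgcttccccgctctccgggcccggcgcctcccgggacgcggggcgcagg
Dmp1: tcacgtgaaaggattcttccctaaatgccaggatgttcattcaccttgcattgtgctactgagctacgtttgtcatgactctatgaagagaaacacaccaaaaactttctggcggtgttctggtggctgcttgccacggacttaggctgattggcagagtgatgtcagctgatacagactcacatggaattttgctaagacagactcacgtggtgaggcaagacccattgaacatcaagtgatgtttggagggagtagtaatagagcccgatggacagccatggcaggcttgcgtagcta
Glrp1: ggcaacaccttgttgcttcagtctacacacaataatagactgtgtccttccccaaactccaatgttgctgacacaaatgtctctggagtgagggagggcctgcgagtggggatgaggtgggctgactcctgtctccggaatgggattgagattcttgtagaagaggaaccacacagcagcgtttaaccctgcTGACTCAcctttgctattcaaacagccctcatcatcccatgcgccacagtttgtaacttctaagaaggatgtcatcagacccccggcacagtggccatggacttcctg

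No window, the other Dmp1 window included, held the RBPJ letters GTGGGAA, the palindrome of EBF factors or the GATA letters AGATAA on either strand. Among 32851 RefSeq windows of the same length, 6.38%, 0.904% and 11.2% held them. The Glrp1 window held the AP-1 letters TGACTCA, beginning 58 bases before the start, as did 5.2% of all windows. The Dpt window held TATAAA, beginning 12 bases after the annotated start, as did 13.6% of all windows. TATAAA was looked for after the sequences had been read. Of the 5 motifs searched, 2 had a match, each in a different window.

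The region difference of the knockout effect is KO minus control in cerebellar vessels, less KO minus control in cerebral vessels. It was fitted for all genes with limma, and 5 of 11716 genes, 0.0427%, passed an adjusted p of 0.05, while 546 had an unadjusted p under 0.05. Of those 5, Dpt, Dmp1, Zfpm2 and Ebf2 stood at ranks 1, 2, 4 and 5 by p. Gabra6, a GABA receptor subunit of cerebellar granule cells with a region difference of 1.40, stood at rank 3. Ppp1r26 and Glrp1, at ranks 6 and 7, did not pass the threshold. They were followed by Pvalb at 1.94, Lmntd2 at 0.43, 2010320M18Rik at 0.62, Agtr1a at 0.78 and Bmf at -0.58. Because the 6 genes were chosen by the p of this measure, their region differences are given as a description and with no test.

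**Figure D1:**
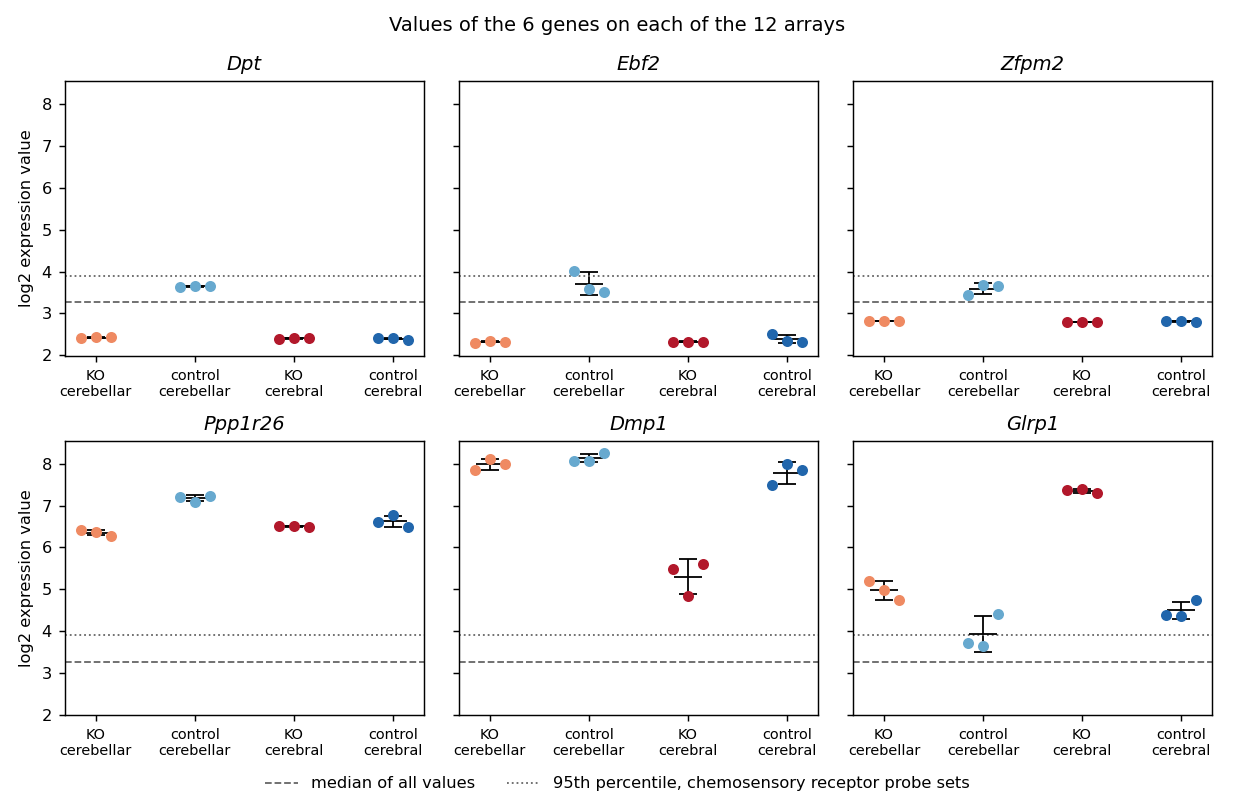
Log2 expression value (vertical axis) of each gene's probe set with the highest mean, on each array of the 4 groups (horizontal axis, 3 arrays a group). Points are arrays, bars the mean ± SD, the dashed line the median of all values (3.27) and the dotted line the 95th percentile of chemosensory receptor probe sets (3.90). Dpt, Ebf2 and Zfpm2 cross the dashed line on the control cerebellar arrays only, whereas Ppp1r26 and Dmp1 lie above both lines throughout.

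Dpt, Ebf2 and Zfpm2 were read above the median of all values on the 3 control cerebellar arrays and on no other array. Dpt read 2.40, 2.44 and 2.43 in KO cerebellar vessels, against 3.63, 3.64 and 3.66 in control cerebellar vessels. In cerebral vessels it read 2.39, 2.41 and 2.41 in KO and 2.41, 2.41 and 2.37 in control mice. The 9 low arrays spanned 2.37 to 2.44, and the control cerebellar arrays did not overlap them. KO minus control was -1.22 (SE 0.043) in cerebellar and 0.00 (SE 0.043) in cerebral vessels, a region difference of -1.23 (SE 0.061).

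Ebf2, with probe set 1418494_at, read 2.30, 2.34 and 2.33 in KO cerebellar vessels, against 4.02, 3.59 and 3.52 in control cerebellar vessels. The cerebral values were 2.32, 2.33 and 2.30 in KO and 2.50, 2.34 and 2.31 in control mice. Control mouse 1 was the highest of its group in both regions, and its cerebellar array was the only one of the 12 on which any of these 3 genes passed 3.90. KO minus control was -1.39 (SE 0.11) in cerebellar and -0.07 (SE 0.11) in cerebral vessels, a region difference of -1.32 (SE 0.16). Zfpm2, with probe set 1449314_at, read 2.81, 2.83 and 2.82 in KO cerebellar vessels, against 3.44, 3.67 and 3.65 in control cerebellar vessels. In cerebral vessels it read 2.79, 2.79 and 2.78 in KO and 2.82, 2.83 and 2.80 in control mice. Again the control cerebellar arrays were clear of the other 9. KO minus control was -0.77 (SE 0.063) in cerebellar and -0.03 (SE 0.063) in cerebral vessels, a region difference of -0.74 (SE 0.088).

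The distance from background was small for all 3, and no fold is given for them, since the KO values lay under 3.27 and all but 1 of their control cerebellar values under 3.90. On the control cerebellar arrays Dpt lay 0.36 to 0.39 above the median of all values, Ebf2 0.25 to 0.75 and Zfpm2 0.17 to 0.40. Dpt was brighter there than 53.4% of probe sets of the same array, Ebf2 than 52.3% to 55.6% and Zfpm2 than 52.0% to 53.6%. Relative to 3.90, Dpt stood at -0.27 to -0.24 and Zfpm2 at -0.46 to -0.23, while Ebf2 stood at 0.11, -0.31 and -0.38. Taken array by array, the chemosensory 95th percentile was 3.80 to 3.87 on KO cerebellar and 3.87 to 4.60 on control cerebellar arrays, and 3.80 to 3.85 on KO cerebral and 3.53 to 3.88 on control cerebral arrays. These percentiles include the smooth muscle marker Olfr558. Their part in the 3 results was not tested.

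Spread within groups entered the choice as well. The residual SD, the spread of arrays about their group means, was 0.0173 for Dpt, and only 0.546% of tested genes had a smaller one, while the median over all tested genes was 0.128. Zfpm2 had 0.0653, with 11.6% of genes below it, and Ebf2 0.144, with 58.6% below. Over the 85 tested genes with a mean at or under 3.27 the median residual SD was 0.189. These 85 still had at least 3 arrays above 3.27, so they are no yardstick for values that stay at background. Among probe sets under 3.27 on all arrays, the SD within groups was 0.007 to 0.026 for Ebf2 1449101_at. It was 0.011 to 0.023 for Dmp1 1426005_at and 0.016 to 0.17 for Zfpm2 1419012_at. For genes that met the filter of 3 arrays above 3.27 only through a single group, that group had to stand apart, and so the 3 genes carry no test here. Tested genes that exceeded 3.27 on the arrays of 1 group alone numbered 2 for KO cerebellar, 4 for control cerebellar, 2 for KO cerebral and 0 for control cerebral vessels. The 4 were Dpt, Ebf2, Zfpm2 and Rbp7, a retinol-binding protein named after its values were seen, which read 3.30 to 4.05 on the control cerebellar arrays and at most 3.23 on the rest. Among all 34945 probe sets the counts were 2 for KO cerebellar, 7 for control cerebellar, 8 for KO cerebral and 2 for control cerebral vessels.

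The other probe sets of these genes did not show the pattern. Ebf2 had 1449101_at, at 2.24 to 2.30, and 1449102_at, at 2.57 to 2.65, and their region differences were 0.00 and -0.01. The second Zfpm2 probe set, 1419012_at, read 2.81 to 3.19 with a region difference of -0.13. All 3 stayed under 3.27 on all 12 arrays. Dpt, Ppp1r26 and Glrp1 each had a single probe set, so no second reading was at hand for them.

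**Figure D2:**
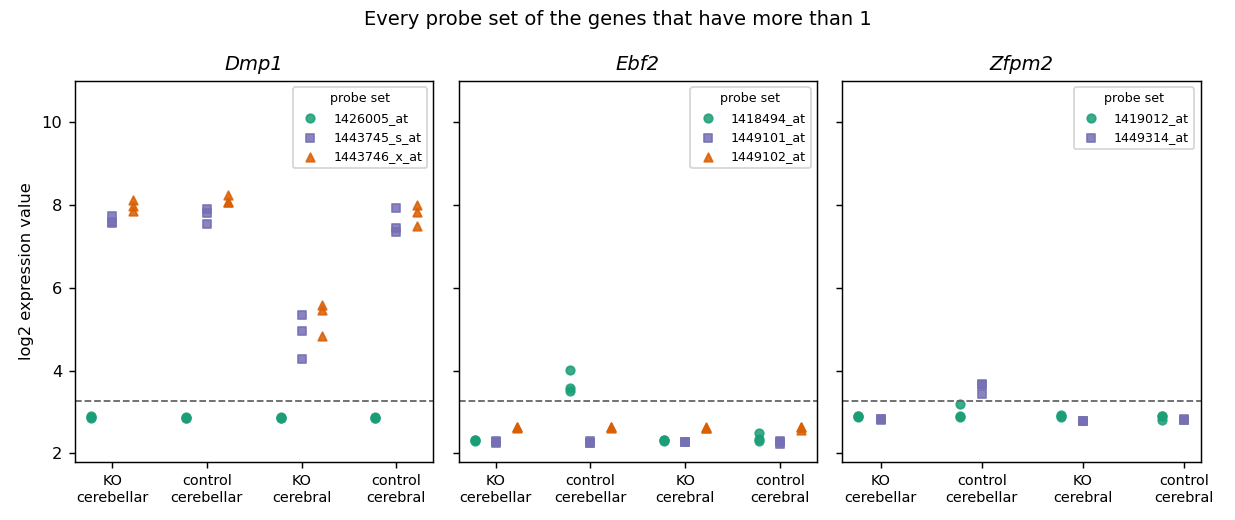
Log2 expression value (vertical axis) of every probe set of Dmp1, Ebf2 and Zfpm2 on each array, by group (horizontal axis). Each point is an array, colour and shape give the probe set, and the dashed line is the median of all values, 3.27. A Dmp1 pair drops on the KO cerebral arrays while 1426005_at stays at 2.85 to 2.91, and 1 probe set each of Ebf2 and Zfpm2 rises over the line.

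Ppp1r26 was likewise highest on the control cerebellar arrays, but at a level well above background. It read 6.41, 6.36 and 6.28 in KO cerebellar vessels, against 7.21, 7.09 and 7.23 in control cerebellar vessels. The cerebral values were 6.51, 6.51 and 6.49 in KO and 6.61, 6.76 and 6.49 in control mice. Every control cerebellar array exceeded the other 9, every KO cerebellar array was below the other 9, and the cerebral groups overlapped. KO minus control was -0.83 (SE 0.074), 1.77-fold lower, in cerebellar vessels and -0.12 (SE 0.074), 1.09-fold lower, in cerebral vessels, a region difference of -0.71 (SE 0.10). All 12 arrays lay 3.01 to 3.96 above the median of all values. The residual SD was 0.0855, and 23.5% of genes had a smaller one.

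The mean of both regions in each mouse is another contrast than the one used for choice and had its own fit over 6 mouse means. A single group that stands apart enters it too, so for Ppp1r26, Dmp1 and Glrp1 it is no independent evidence. The difference between regions shares its residual spread with the choice, and is given for these 3 genes with no test. The spread of the mouse means within a genotype is part of that residual spread as well. Adjusted p values of these 3 genes on the mouse mean are thus favoured by the choice, and are given as a description. For Ppp1r26, on the mouse mean of both regions, KO minus control was -0.47 (SE 0.048, limma, adjusted p = 0.00559), with the 3 KO mice at 6.39 to 6.46 and the 3 controls at 6.86 to 6.93. By that test 4.03% of all genes were called, 3.0% lower and 1.02% higher in KO mice. Cerebellar minus cerebral over both genotypes was 0.20 (SE 0.052). Within mice it was -0.10, -0.14 and -0.21 in KO and 0.60, 0.32 and 0.74 in control mice, which is the measure of the choice taken mouse by mouse.

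Of all genes, 319 (2.72%) had the 3 control cerebellar arrays above the other 9, among them Dpt, Ebf2, Zfpm2 and Ppp1r26. This order was part of what made the region difference large, and nothing is read from the share.

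**Figure D3:**
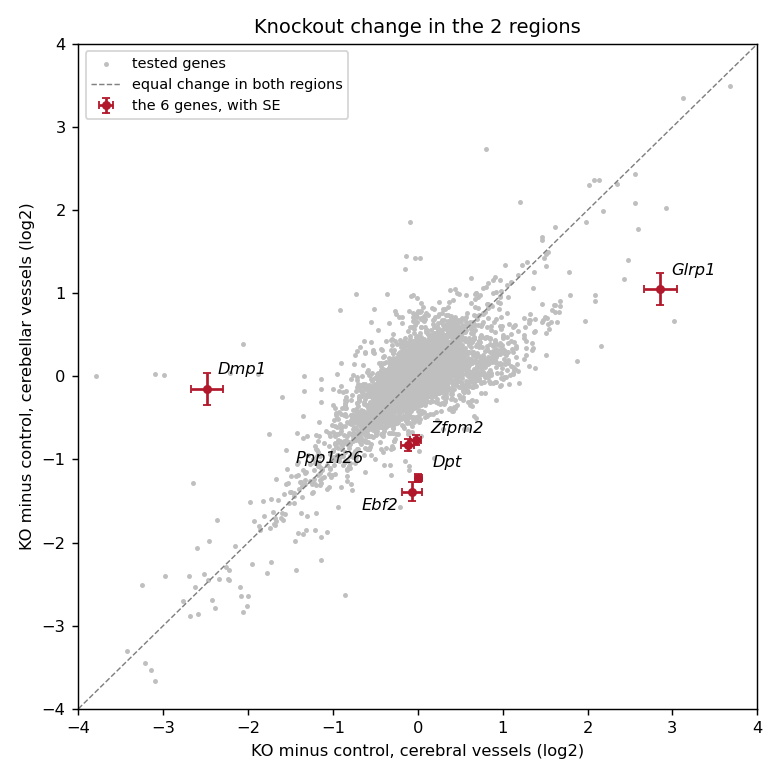
KO minus control in cerebellar vessels (vertical axis, log2) against KO minus control in cerebral vessels (horizontal axis, log2) for the tested genes (grey) and the 6 genes (red, bars are SE). The dashed line marks equal change, and 8 genes beyond 4 on either axis are not drawn. Dpt, Ebf2, Zfpm2 and Ppp1r26 lie below the line near 0 on the horizontal axis, Dmp1 at -2.48 and Glrp1 at 2.86.

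Dmp1 moved in the other region. Its probe set 1443746_x_at read 7.85, 8.12 and 7.99 in KO cerebellar vessels, against 8.08, 8.07 and 8.25 in control cerebellar vessels. In cerebral vessels it read 5.47, 4.83 and 5.60 in KO and 7.50, 8.0 and 7.84 in control mice. The KO cerebral arrays lay apart from the other 9, while the 2 cerebellar groups overlapped. KO minus control was -0.15 (SE 0.19), 1.11-fold lower, in cerebellar vessels and -2.48 (SE 0.19), 5.59-fold lower, in cerebral vessels, which gave a region difference of 2.33 (SE 0.27). Even the lowest KO cerebral array was 1.56 above the median of all values and 0.93 above the chemosensory 95th percentile.

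A second Dmp1 probe set, 1443745_s_at, followed the first. It read 7.57, 7.75 and 7.60 in KO cerebellar vessels, against 7.90, 7.54 and 7.80 in control cerebellar vessels. In cerebral vessels it read 4.97, 4.28 and 5.35 in KO and 7.35, 7.45 and 7.93 in control mice. The region difference was 2.60, and again KO mouse 2 was the lowest. The platform annotation ties this pair to the same source sequence, so the pair is not a set of independent readings. The array maker's suffixes x and s mark probe sets whose probes may match further sequences. The third probe set, 1426005_at, made to another sequence, read 2.85 to 2.91 on all 12 arrays, below the median of all values, with a region difference of 0.02. Dmp1 has also served as a symbol for Dmtf1, a cyclin D binding Myb-like factor. In the annotation used here the gene identifier of all 3 probe sets is that of dentin matrix protein 1.

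On the mouse mean of both regions, Dmp1 was at 6.47 to 6.79 in KO and 7.79 to 8.05 in control mice, a difference of -1.32 (SE 0.11, limma, adjusted p = 0.0027). Cerebellar minus cerebral was 1.52 (SE 0.13). The low KO cerebral arrays enter both differences. In single mice, cerebellar minus cerebral was 2.37, 3.29 and 2.39 in KO and 0.57, 0.07 and 0.42 in control mice. It was positive in all 6 mice. Of all genes, 429 (3.66%) had the 3 KO cerebral arrays below the other 9, among them Dmp1. Zfpm2 was another, at background, with KO cerebral values of 2.78 to 2.79 against 2.80 or more elsewhere.

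Glrp1 was higher in KO mice in both regions, and more so in cerebral vessels. It read 5.20, 4.98 and 4.75 in KO cerebellar vessels, against 3.72, 3.64 and 4.42 in control cerebellar vessels. In cerebral vessels it read 7.38, 7.39 and 7.29 in KO and 4.39, 4.35 and 4.73 in control mice. Neither pair overlapped, although the lowest KO cerebellar array, at 4.75, came close to the highest control cerebellar array, at 4.42. KO minus control was 1.05 (SE 0.20) in cerebellar vessels and 2.86 (SE 0.20), 7.26-fold higher, in cerebral vessels, so the region difference of -1.81 (SE 0.28) was one of size and not of sign.

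The background was nearer in some groups than in others. Glrp1 exceeded the median of all values on 12 arrays and the chemosensory 95th percentile on 10, and both arrays that fell short were control cerebellar ones, so no fold is given for cerebellar vessels. On the mouse mean of both regions it was at 6.02 to 6.29 in KO and 4.0 to 4.58 in control mice, a difference of 1.95 (SE 0.17, limma, adjusted p = 0.00298). Cerebellar minus cerebral was -1.47 (SE 0.14). Within mice that difference was -2.17, -2.41 and -2.54 in KO and -0.67, -0.71 and -0.32 in control mice, negative in all 6. The 3 KO cerebral arrays were above the other 9 for 432 genes (3.69%), Glrp1 among them.

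**Figure D4:**
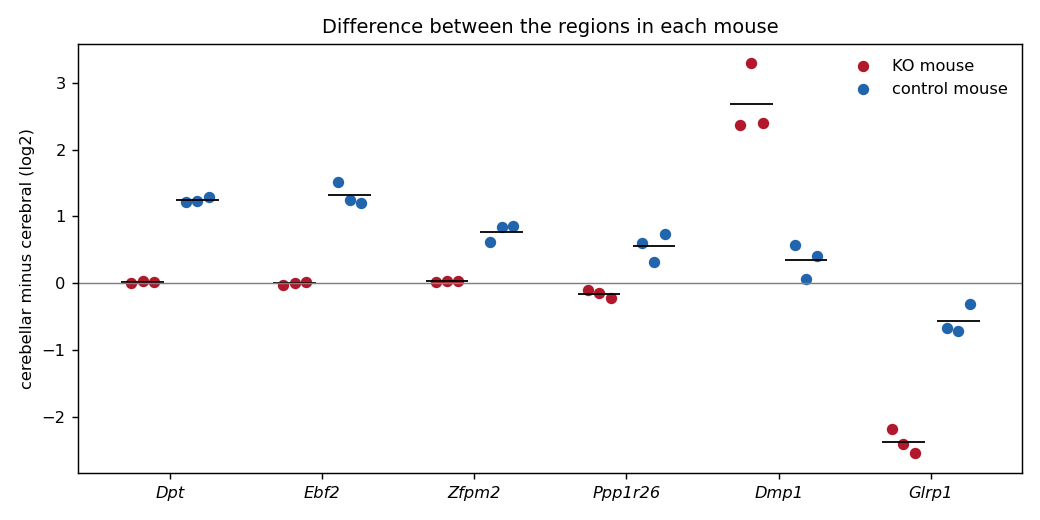
Cerebellar minus cerebral level (vertical axis, log2) in each of the 6 mice for the 6 genes (horizontal axis), KO mice in red left of control mice in blue, with the group mean as a bar. KO mice lie between -0.02 and 0.04 for Dpt, Ebf2 and Zfpm2. The difference between the genotypes here is what the genes were chosen by.

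Markers of other cells moved beside some of these genes. The mean level of 13 microglia and macrophage markers was 10.34 to 10.59 in KO cerebellar and 10.13 to 10.41 in control cerebellar vessels, and 10.88 to 11.35 in KO cerebral and 10.44 to 10.75 in control cerebral vessels. As for Glrp1, the KO cerebral arrays were highest and control cerebellar arrays lowest in group median. None of the 13 was called for the region difference (limma; 3 with an unadjusted p under 0.05), whose median was -0.48 against 0.02 over all genes, and 8 of 13 were called lower in cerebellar than in cerebral vessels. Of all genes, 12.4% were called between regions, 7.54% higher and 4.83% lower in cerebellar vessels. That fit had no term for the mouse. With the mouse as a replicate block the share was 21.3%, with 11.6% higher and 9.68% lower, and 9 of the 13 were called lower. P2ry12, a purine receptor of microglia, averaged 11.6 in KO and 11.5 in control cerebellar vessels, and 13.3 in KO and 12.5 in control cerebral vessels. The region differences of the 13 ran from -1.06 to 0.70. Pf4, at 0.70, went the other way. It averaged 8.90 in KO and 8.48 in control cerebellar vessels, and 8.15 in KO and 8.42 in control cerebral vessels. The part of these 13 markers in the Glrp1 values was not tested. The 36 fibroblast markers tested, which mark cells that make much of the matrix around vessels, had a mean level of 8.76 to 8.92 in KO cerebellar and 8.62 to 8.78 in control cerebellar vessels. In cerebral vessels it was 8.08 to 8.40 in KO and 8.25 to 8.43 in control mice. On the mouse mean, 4 of the 36 were called higher and 4 lower in KO mice, beside 1.02% and 3.0% of all genes. Between regions, 15 of the 36 were called higher and 1 lower in cerebellar vessels. With the mouse as a replicate block these were 18 and 1. Mural cells are the ones that carry Notch3. The mean level of 14 pericyte markers was 11.16 to 11.47 in KO cerebellar and 11.85 to 12.06 in control cerebellar vessels, and 10.59 to 10.78 in KO and 11.37 to 11.51 in control cerebral vessels. That of 15 smooth muscle markers was 8.35 to 8.63 in KO cerebellar and 9.33 to 9.88 in control cerebellar vessels, and 8.21 to 8.35 in KO and 9.21 to 9.54 in control cerebral vessels. Both lists were highest in group median on the control cerebellar arrays, on which Dpt, Ebf2, Zfpm2 and Ppp1r26 were high, and their part in those values was not tested. Of 13 bone markers, a single one was tested, the alkaline phosphatase Alpl, which was not called in any comparison.

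The mean level of cerebellar neuron markers was highest on the KO cerebellar arrays, on which Dpt, Ebf2, Zfpm2 and Ppp1r26 were low. The mean of the 8 tested was 6.24 to 6.68 in KO cerebellar and 5.64 to 5.95 in control cerebellar vessels, and 5.0 to 5.09 in KO and 5.09 to 5.21 in control cerebral vessels. Gabra6 averaged 6.50 in KO and 5.06 in control cerebellar vessels, and Pvalb, a calcium-binding protein of Purkinje cells and interneurons, averaged 4.94 in KO and 3.09 in control cerebellar vessels. Zic1, a transcription factor of granule cells, went the other way, at 12.8 in KO and 13.3 in control cerebellar vessels, and its difference of -0.55 on the mouse mean was not called (limma, adjusted p = 0.0956). The region differences of the 8 ran from -0.76 to 1.94, with a median of 0.64 against 0.02 over all genes. For it 1 of the 8, Gabra6, was called and 5 had an unadjusted p under 0.05 (limma). Of all 11716 genes, 0.0427% were called and 546 had such a p. On the mouse mean Gabra6 was the 1 of 8 called, 0.73 higher in KO mice, beside 1.02% of all genes called higher. The part of these cells in the values of the 4 genes was not tested.

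Genes known to work with the 6 were described by the same 3 comparisons, and none of them was called for the region difference in any list. At an unadjusted p under 0.05 it was met by 1 of 15 Notch signalling genes and 0 genes of the other lists (limma). For Dpt, 14 of 15 listed matrix partners were tested, with a median region difference of 0.08. Decorin (Dcn), which dermatopontin binds, was 1.30 higher in cerebellar than in cerebral vessels, and the related Lum was 1.91 higher. With Col1a2 and Vtn they were among 5 of 14 called higher in cerebellar vessels, with a median of 0.10 against -0.01 over all genes. On the mouse mean, Col3a1 was higher in KO mice by 0.77, and Tgfb3 and Col1a2 differed by -1.07 and -0.47. Those 3 of 14 were called, and the list's median was -0.10 against -0.00 over all genes.

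Among 9 relatives of Ebf2, 7 were tested. Ebf1, of the same family, was bright, at 12.1 in KO and 12.5 in control cerebellar vessels, and its difference of -0.36 on the mouse mean was not called (limma, adjusted p = 0.09). Tbx15, a T-box factor of mesenchymal cells, was the only one called on the mouse mean, at -1.32 (limma, adjusted p = 0.0187). Ppargc1a, a coactivator of mitochondrial genes, was the only one called between regions, 0.83 higher in cerebellar vessels, while with the mouse as a replicate block Tbx15 was called higher there and Zfp423 lower as well. The medians of the list were -0.23 on the mouse mean and 0.07 between regions.

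Of 18 relatives of Zfpm2, 12 were tested, and the cardiac factors Gata4 and Gata5 were among those under the filter. Gata2, an endothelial GATA factor, averaged 11.7 in KO and 11.4 in control cerebellar vessels and was not called. Tbx18, a T-box factor of mural cells, was called on the mouse mean, at -0.78 (limma, adjusted p = 0.00794). No relative was called between regions, where 3 had an unadjusted p under 0.05 (limma). With the mouse as a replicate block Nr2f1 was called higher in cerebellar vessels and Gata2 and Mta1 lower. The list's medians were 0.09 for the region difference, -0.04 on the mouse mean and -0.05 between regions.

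Protein phosphatase 1 genes, the list set beside Ppp1r26, had 12 of 14 tested. Ppp1r12b, a targeting subunit of myosin phosphatase, differed by -1.66 on the mouse mean, Ppp1r14a, an inhibitor of that phosphatase in smooth muscle, by -0.86, and the stress-induced Ppp1r15a by -0.84. They were the 3 called, all lower in KO mice, and the median of the list was -0.12. Ppp1r12a, the main targeting subunit of myosin phosphatase, was at -0.42 and was not called. Between regions 3 were called higher in cerebellar vessels and 1 lower.

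For Dmp1, 5 of 11 listed genes of its family and of mineralisation were tested, and none was called in any of the 3 comparisons, nor had any an unadjusted p under 0.05 (limma). Their medians were -0.02, 0.04 and 0.05 for the region difference, the mouse mean and the regions. The family members Ibsp, Dspp and Mepe were under the filter.

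Notch signalling genes were called on the mouse mean and not for the region difference. Of 15 tested, Hey2 differed by -1.17, Nrarp by -1.22 and Heyl by -0.74 on the mouse mean, the 3 that were called. Hey2, a target of the pathway in mural cells, averaged 9.68 in KO and 10.9 in control cerebellar vessels and 9.31 in KO and 10.4 in control cerebral vessels, a region difference of -0.09. The median region difference of the list was -0.06. In vascular smooth muscle, which with pericytes makes up the mural cells, 11 of 15 markers were called lower in KO mice on the mouse mean. Of 14 pericyte markers 9 were called lower, and of all genes 3.0%. No marker of either list was called for the region difference. An unadjusted p under 0.05 for it was met by 0 smooth muscle markers and 1 pericyte marker (limma).

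Over the 12 arrays the genes of the first pattern resembled each other, with Pearson's r of 0.99 for Dpt and Zfpm2, 0.98 for Dpt and Ebf2 and 0.93 for Dpt and Ppp1r26. Dmp1 and Glrp1 ran opposite, with r of -0.94. These values describe 12 arrays in 4 groups, share those arrays and rest mostly on a single group. Among the other genes, Tram1l1 was most like Dpt (r = 0.96) and Zfpm2 (r = 0.98), Myc was most like Ebf2 (r = 0.94) and Xirp1 most like Ppp1r26 (r = 0.97). They were followed by 4833422C13Rik (0.91) and Xirp1 (0.90) for Dpt, 4833422C13Rik (0.94) and Ncald (0.90) for Zfpm2, Nmnat1 (0.93) and Tram1l1 (0.91) for Ebf2, and Timp2 (0.94) and Pde1a (0.93) for Ppp1r26. Tram1l1 averaged 7.11 in KO and 7.52 in control cerebellar vessels and 7.02 in KO and 7.11 in control cerebral vessels. Its level was thus far from background, unlike Dpt. Xirp1, a striated muscle protein of cell junctions, averaged 2.76 in KO and 5.40 in control cerebellar vessels. Spon1, the matrix protein spondin, was most like Dmp1 (r = 0.94) and averaged 6.27 in KO and 7.62 in control cerebral vessels, followed by Krt10 (0.93) and Akr1b8 (0.93). Abhd15 (r = 0.97), Ms4a6b (r = 0.96) and Tlr7 (r = 0.95), the last an RNA sensor of innate immune cells, were most like Glrp1. Tlr7 averaged 8.07 in KO and 7.50 in control cerebellar vessels and 9.42 in KO and 7.87 in control cerebral vessels.

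Every value under a floor was also raised to it, which gives the part of each difference that lay above the floor. With the floor at the median of all values, the region difference fell in size to -0.38 for Dpt, -0.44 for Ebf2 and -0.32 for Zfpm2. With the floor at the chemosensory 95th percentile it was 0 for Dpt and Zfpm2 and -0.04 for Ebf2. All values of Dpt and Zfpm2 lay under that floor, so their 0 was fixed in advance. Ppp1r26 and Dmp1 lay above both floors on all 12 arrays and so could not move, and Glrp1 was at -1.96 under the higher one.

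**Figure D5:**
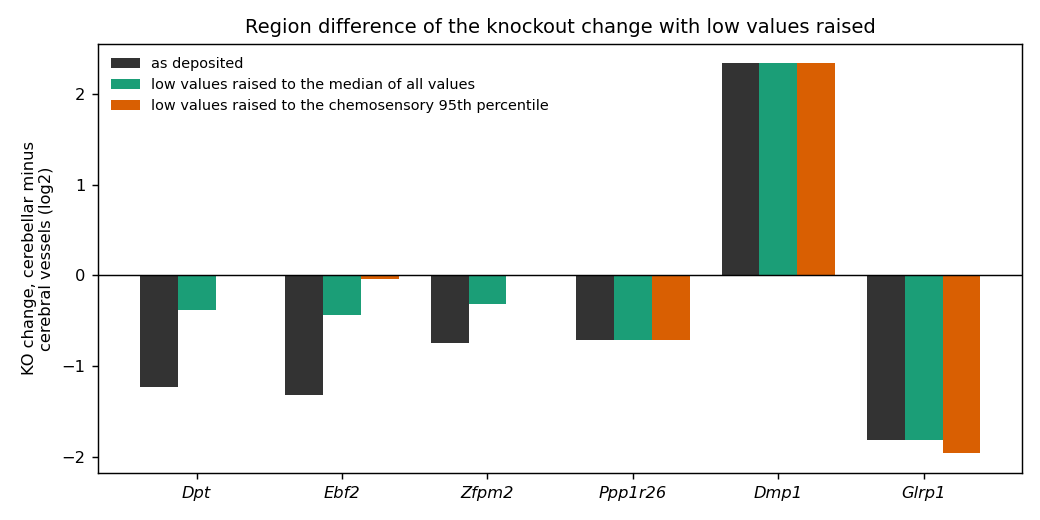
Region difference of the knockout effect (vertical axis, log2, cerebellar minus cerebral) for the 6 genes (horizontal axis) as deposited, with low values raised to the median of all values (3.27) and with low values raised to the chemosensory 95th percentile (3.90). The bars of Dpt, Ebf2 and Zfpm2 shrink to -0.38, -0.44 and -0.32 and then to about 0. Those of Ppp1r26 and Dmp1 keep their height, since all their values lie above both floors.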

How the data were processed

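The deposited table held log2 expression values for 45101 probe sets on 12 arrays, made by the authors with GCRMA 2.32.0 per the submitters' processing notes, and used here without rescaling. GCRMA subtracts background, puts the arrays on a common scale and merges the probes of a set. Biotinylated cRNA came from about 100 ng of total RNA, per the labels. The number of arrays limits the precision.

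Probe sets naming 1 gene were kept, the one with the highest mean stood for its gene, and a gene was tested if at least 3 arrays exceeded 3.27, the median of all values. limma 3.58.1 in R 4.3.3 (lmFit, eBayes, two-sided, Benjamini-Hochberg over 11716 genes, threshold 0.05) fitted 4 group means, with 8 residual degrees of freedom. Genotype was tested on 6 mouse means, with 4. The fits were tested on simulated data. Replicate numbers in the titles were read as mice, and were used as such across regions: the deviations of the same mouse in both regions correlated at 0.37 to 0.70, and Xist had the same state in both regions of 6 of 6 mice.

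Named were all 6 genes with every probe set, the 3 genes most like each by Pearson's r, the 5 next in the order of interaction p, and up to 4 genes of each list by call and size. The members and lists were chosen with earlier results of these data known. Alternatives changed the filter, the choice of probe set, the scaling, the variance model, low values, mouse blocks, Xist as a covariate, and single arrays or mice left out.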

Additional observations from a re-analysis of the deposited data

Results flagged for a closer look

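The region difference of the knockout effect was flagged for Dpt (-1.2273), Ebf2 (-1.3190), Zfpm2 (-0.7410) and Dmp1 (2.3324), as log2 differences. The genes were chosen by the p of this measure, so these values are a description with no test. The first 3 rest on values within 0.75 of the median of all values on the control cerebellar arrays, and Dmp1 on 2 of its 3 probe sets. The causes were not tested.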

How the results depend on the processing

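The sign of no region difference turned under any alternative run, although Dpt and Zfpm2, whose values all lay under the higher floor, came to exactly 0 with it. With low values raised to 3.27 the region differences were -0.3754 (Dpt), -0.4396 (Ebf2) and -0.3181 (Zfpm2), and raised to 3.90 they were 0, -0.0381 and 0. The mean over probe sets gave -0.4342 for Zfpm2 and 1.6507 for Dmp1, and Ebf2, whose mean did not meet the filter, was not tested; 4 genes were called. Leaving out 1 array each gave -1.24 to -1.21 for Dpt, -1.4141 to -1.1653 for Ebf2, -0.8157 to -0.6995 for Zfpm2, -0.78 to -0.64 for Ppp1r26, 2.10 to 2.48 for Dmp1 and -1.95 to -1.56 for Glrp1. Genes called for the region difference numbered 5, and 2 with no filter, 0 with a filter at the 75th percentile of all values (8.45), and 1 (without control cerebral replicate 3) to 20 (without KO cerebral replicate 2) with 1 array left out. Genes called on the mouse mean numbered 472, and 312 with no filter, 710 with all probe sets tested singly, and 237 (without KO mouse 3) to 473 with 1 mouse left out. Genes called between regions numbered 1449, and 2214 with array weights and 953 (without control cerebellar replicate 2) to 1643 with 1 array left out. The mouse as a fixed replicate block gave 4 calls for the region difference and 2495 between regions, and as a random replicate block 7 and 2806. The same number as a replicate block across genotypes gave 407 calls on the mouse mean, but same-numbered mice of the 2 genotypes correlated at only -0.17 to 0.26, so the numbers were not taken to pair them. For Ppp1r26, cerebellar minus cerebral shares its residual spread with the choice, so no call is read from it. It was 0.2009 in the main fit, 0.1965 with quantile normalization and 0.1674 to 0.2367 with 1 array left out. Whether it passed the threshold changed with the setting, and 8 of 12 fits with 1 array left out did not pass it. The calls of Dmp1, Glrp1 and Ppp1r26 on the mouse mean were kept with any 1 mouse left out, with a highest adjusted p of 0.0339 (limma). A single group that stands apart enters the mouse mean too, and the spread of the mouse means is part of the residual spread of the choice. These calls are thus no independent evidence. The causes of these shifts were not tested beyond what each setting removes. Signal over background limits Dpt, Ebf2 and Zfpm2.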
